A study of Mus musculus with 6 samples.

Results

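The genes described here are 10 genes of the pericentral liver zone, Glul, Oat, Rhbg, Slc1a2, Slc1a4, Cyp2e1, Cyp1a2, Axin2, Lgr5 and Tbx3, chosen by name among the 55385 genes of the deposited count table. All 10 were found by their GENCODE M21 symbol, and all 10 passed the filter on low counts that left 14454 genes to test. Poly(A) RNA was sequenced from 6 liver samples of about 40 mg from male wild-type C57BL/6 mice, 3 after a sham operation (Sham) and 3 after vertical sleeve gastrectomy (VSG), in which surgeons leave only a narrow tube of stomach. Both groups were 6 to 8 weeks old when a high-fat diet began, ate it for 10 weeks before the operation and for 12 weeks after it, and differed by the operation alone as far as the labels say. Per the study's methods the RNA came from 3 mice of each group. The samples are whole liver, in which fewer pericentral cells and less RNA per pericentral cell cannot be told apart.

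The liver lobule is divided into zones along the path of the blood, from the portal vein to the central vein. Hepatocytes around the central vein receive Wnt and R-spondin proteins from neighbouring endothelial cells, and the resulting beta-catenin activity maintains their gene programme. Glutamine synthesis from ammonia and much of the cytochrome P450 metabolism of drugs take place there, while urea synthesis and gluconeogenesis are placed nearer the portal vein.

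None of the 10 pericentral genes passed an adjusted p of 0.05 between VSG and Sham livers in edgeR's quasi-likelihood test, where 14.7% of all genes tested did. Over all genes, 981 were called higher (6.79%) and 1137 lower (7.87%) after VSG, and with libraries scaled by total counts in place of TMM factors that split was 486 higher and 1512 lower, with the median log2 fold change of all genes moving by -0.14. At an unadjusted p under 0.05, 2 of the 10 passed (Rhbg and Tbx3) against 33.9% of all genes. With DESeq2, the tool named in the study's methods, the same 2 genes had an adjusted p under 0.05, against 19.4% of its genes, and with limma-voom 1 did (Rhbg), against 12.9%. Rhbg was also the 1 gene called with total counts (13.8% of all genes), with at least 10 counts in every library (14.8%) and with limma on log2(FPKM + 1) (12.9%), and Tbx3 was the 1 called with all genes of at least 1 count (8.38%). None of the 10 was called with RLE factors, another scaling for composition (14.3% of all genes), or when a library was left out, be it Sham replicate 1 (8.19%), replicate 2 (5.34%), replicate 3 (1.07%) or VSG replicate 6 (1.42%). In turn, 1 was called without VSG replicate 4 (Tbx3, 7.32%) or VSG replicate 5 (Slc1a4, 18.4%). Of the 10 log2 fold changes 5 were positive and 5 negative, with a median of 0.05 beside 0.03 over all genes tested. The groups did not overlap in 1 gene of the 10, Rhbg, lower after VSG, while they did not overlap in 39.7% of all genes, 19.8% higher and 19.8% lower.

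VSG replicate 4 stood apart in these genes, though not in these alone. It was the lowest VSG library for 9 of the 10 genes, Slc1a4 being the exception, and the lowest of all 6 libraries for 6 of them. Sham replicate 2 was the highest Sham library for 6 of the 10. The summed levels of the other pericentral and of the periportal genes, listed below, were likewise lowest in VSG replicate 4 and highest in Sham replicate 2. Most of the periportal sum was Alb. The share of all genes with this order was not counted. In VSG replicate 4 the summed level of 8 neutrophil markers was also the highest, at 1799 CPM (counts relative to library size, scaled with TMM factors), against 146 CPM in VSG replicate 5, 828 CPM in VSG replicate 6 and 2.56 to 14.1 CPM in Sham livers. All 8 neutrophil markers and 3 of 7 macrophage markers were called higher after VSG, beside 6.79% of all genes. The defining neutrophil marker Mpo was at 15, 0 and 1 counts in Sham replicates 1 to 3 and at 137 to 3297 counts in VSG libraries. The macrophage list summed to 339 to 703 CPM in the Sham livers and 641 to 1477 CPM after VSG. All 7 stellate cell markers had negative log2 fold changes, with a median of -0.79, and 3 of them did not overlap between the groups, beside 39.7% of all genes, but none was called. Their sum was 519 to 733 CPM in the Sham livers and lower in every VSG liver, at 321 to 503 CPM. None of the 6 lymphocyte markers was called, while the endothelial list held 1 of 9 (lower) and the bile duct list 1 of 5 (higher), beside 7.87% of all genes lower and 6.79% higher. The 8 hepatocyte markers, none of them called, summed to 85130 to 125100 CPM in the Sham livers and 101500 to 131500 CPM after VSG. That sum mixes markers that moved apart, 5 with positive and 3 with negative log2 fold changes. Trf was at 14370 to 17610 CPM in the Sham livers and 51150, 17520 and 47160 CPM in VSG replicates 4 to 6. Alb was at 50700 to 81830 CPM in the Sham livers and 35830, 57630 and 56430 CPM after VSG. The part of these other cells in the results was not tested.

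Per length, the order of the 10 levels was the same in both groups. In Sham livers Cyp2e1 led with 3832 ± 1969 FPKM (the same values relative to exon length, SD, n = 3), followed by Glul with 384 ± 106 FPKM, Oat with 337 ± 99.6 FPKM and Cyp1a2 with 108 ± 68.3 FPKM. Slc1a2 came next with 23.3 ± 7.74 FPKM and Tbx3 with 4.69 ± 0.565 FPKM. The lower end held Slc1a4 with 2.32 ± 0.736 FPKM, Axin2 with 1.68 ± 0.572 FPKM, Lgr5 with 1.06 ± 0.311 FPKM and Rhbg with 0.959 ± 0.144 FPKM. The last place of Rhbg is uncertain, since 1190 of its 1937 exon bases are shared with another gene on the same strand. If shared reads were set aside, its FPKM on the full length would be too low. The ranges of Glul and Oat over livers overlapped in both groups, although within each liver Glul was above Oat in all but VSG replicate 4 (151 against 171 FPKM). The deposited length of Glul, 3782 bases, exceeds its 3323 exon bases in GENCODE M21, and FPKM on the latter would be higher for Glul. With the same counts it would then be slightly above Oat in VSG replicate 4 too, so that exception rests on the length used. Slc1a4 overlapped Axin2, and Axin2 overlapped Lgr5, in both groups. Lgr5 overlapped Rhbg in Sham livers and not in VSG livers. Cyp1a2 and Slc1a2, Slc1a2 and Tbx3, and Tbx3 and Slc1a4 overlapped in VSG livers and not in Sham livers. Among the 14454 genes tested, Cyp2e1 held place 15 by mean FPKM and Glul place 125.

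**Figure D1:**
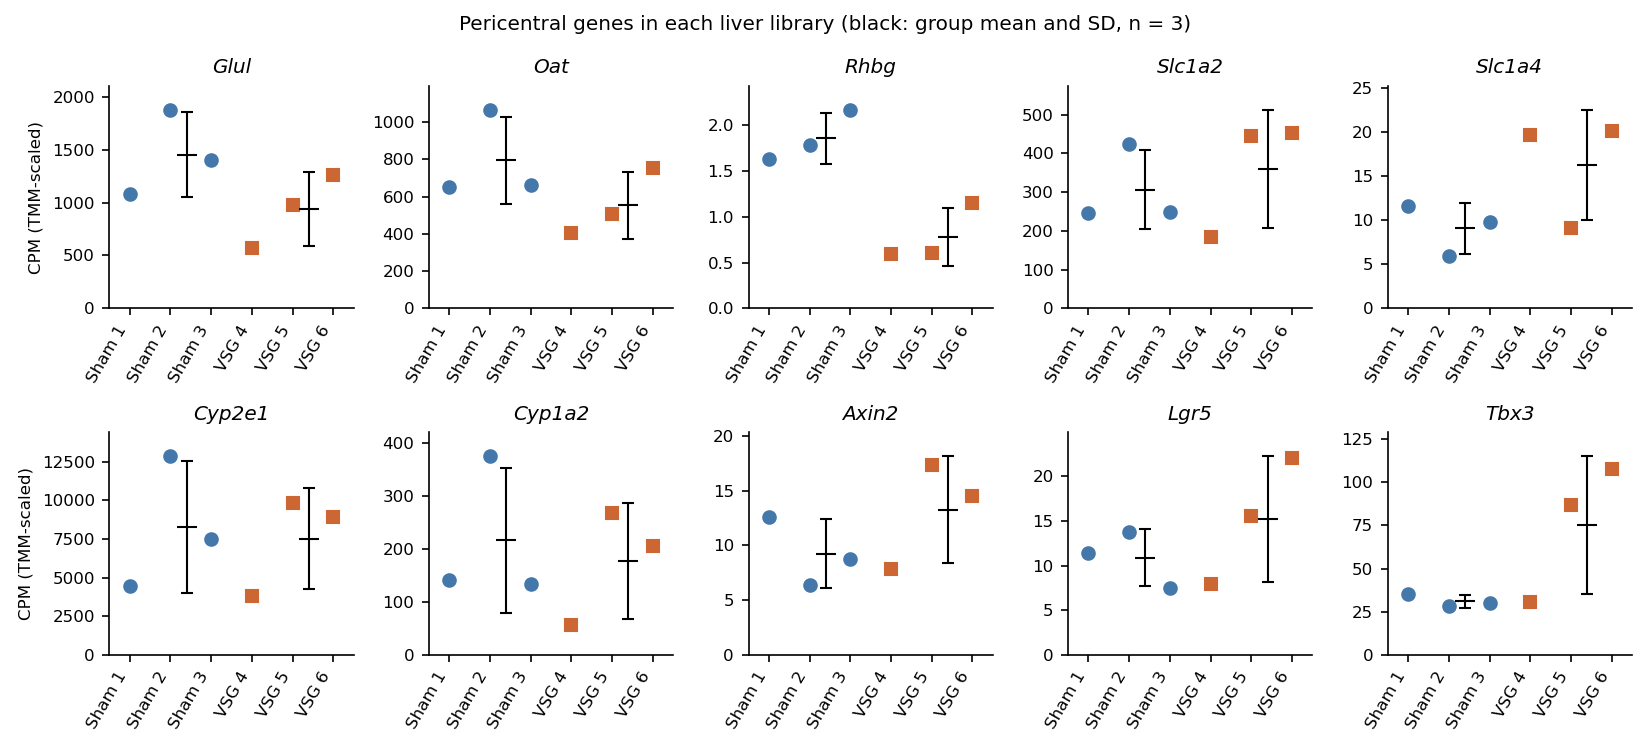
Level of each of the 10 pericentral genes (y axis, CPM scaled with TMM factors, linear from 0) in each of the 6 libraries (x axis), with circles for Sham, squares for VSG and black bars for the group mean ± SD (n = 3). The groups are separate for Rhbg alone, and VSG 4 is the lowest VSG library in every panel except Slc1a4.

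The first group holds genes of ammonia and amino acid handling. Glul encodes glutamine synthetase, which joins ammonia to glutamate in the last cells before the central vein (ENSMUSG00000026473.16, GRCm38 chromosome 1, 153899944 to 153909723, plus strand). Its level was 1079, 1877 and 1401 CPM in Sham replicates 1 to 3 and 571, 980.5 and 1263 CPM in VSG replicates 4 to 6. The groups overlapped, VSG replicate 6 lying above Sham replicate 1. On the log2 scale VSG differed from Sham by -0.63 (SE 0.341, 95% interval -1.44 to 0.18), with an adjusted p of 0.237 by edgeR. Without VSG replicate 4 the log2 fold change was -0.37 (adjusted p 0.437 by edgeR), and without Sham replicate 2 it was -0.41.

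Oat encodes ornithine aminotransferase, which turns ornithine into a precursor of glutamate and proline (ENSMUSG00000030934.9, chromosome 7, 132557478 to 132576398, minus strand). It was at 654, 1066 and 664 CPM in the Sham livers and 404, 504 and 751 CPM after VSG. Only VSG replicate 6 reached into the Sham range. The log2 fold change was -0.52 (SE 0.301, 95% interval -1.24 to 0.19), with an adjusted p of 0.262 by edgeR. Leaving out Sham replicate 2 gave -0.255 for Oat, and leaving out VSG replicate 4 gave -0.34. Glul and Oat ordered the libraries in the same way within each group, and their log2 profiles, each centred on its own mean, differed by a root-mean-square of 0.183 over the 6 libraries, the smallest value among all pairs of the 10 genes.

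Rhbg encodes an ammonia transporter of the Rh family (ENSMUSG00000104445.1, chromosome 3, 88242874 to 88254709, minus strand). Its level was 1.63, 1.78 and 2.17 CPM in the Sham livers and 0.588, 0.598 and 1.15 CPM after VSG. Every VSG library lay below every Sham library. On the log2 scale VSG differed from Sham by -1.26 (SE 0.339, 95% interval -2.06 to -0.45), with an adjusted p of 0.0519 by edgeR, just outside the threshold. Under 5 of 13 alternatives the adjusted p fell under 0.05, among them DESeq2 at 0.0174. These values rest on 39 to 57 counts per Sham library and 13 to 24 per VSG library. Of the 1937 exon bases of Rhbg, 1190 are shared with Gm38392 on the same strand, which had at most 2 counts in a library, so the level of Rhbg is uncertain wherever reads shared by overlapping genes were set aside.

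Slc1a2 and Slc1a4 belong to a transporter family for glutamate and neutral amino acids. Slc1a2 carries glutamate into the cell (ENSMUSG00000005089.15, chromosome 2, 102658659 to 102790784, plus strand) and was at 246, 423 and 248 CPM in the Sham livers and 183, 444 and 451 CPM after VSG. VSG replicate 4 was the lowest and VSG replicate 6 the highest of all 6 libraries. The log2 fold change was 0.23 (SE 0.387, 95% interval -0.69 to 1.15), with an adjusted p of 0.695 by edgeR, and it was 0.55 without VSG replicate 4 (adjusted p 0.231). The other fits without 1 library gave 0.0368 to 0.54.

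Slc1a4, the transporter of alanine, serine and cysteine (ENSMUSG00000020142.12, chromosome 11, 20302180 to 20332713, minus strand), was at 11.6, 5.94 and 9.80 CPM in the Sham livers and 19.7, 9.11 and 20.2 CPM after VSG. VSG replicate 5 fell inside the Sham range, and the other VSG libraries were above it. On the log2 scale VSG differed from Sham by 0.84 (SE 0.362, 95% interval -0.03 to 1.70), with an adjusted p of 0.157 by edgeR. It passed the threshold only without VSG replicate 5, with a log2 fold change of 1.10 and an adjusted p of 0.0405. Slc1a4 was the gene of this group that differed most from Glul in its profile, by a root-mean-square of 1.03 on the log2 scale.

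The second group holds 2 cytochromes P450. Cyp2e1 oxidises ethanol, acetone and paracetamol (ENSMUSG00000025479.9, chromosome 7, 140763739 to 140774987, plus strand), and Cyp1a2 oxidises caffeine and aromatic amines and is a target of the aryl hydrocarbon receptor (ENSMUSG00000032310.4, chromosome 9, 57676937 to 57683703, minus strand). To show what lies in front of them, the sequences before the start were searched in RefSeq windows (GRCm38.p6) that run from 250 bases before to 50 bases after the start, on both strands. A window was found for 7 of the 10 genes. The letters TATAAA were found in 2 of these 7 windows, those of both cytochromes, and in 13.6% of 32851 windows of all genes. CTTTGAT is a form of the core bound by TCF and LEF factors of the Wnt pathway. It was found in 1 of the 7, that of Slc1a2, and in 3.73% of all windows. Other forms of that core were not searched, so the remaining windows were not shown to lack it. GCGTG, the core of the xenobiotic response element bound by the aryl hydrocarbon receptor, was found in that of Slc1a4 alone among the 7 and in 32.4% of all windows. The HNF1 motif and CAAAGTCCA of HNF4 were found in none of the 7 and in 0.009% and 0.475% of all windows. No match overlapped another. The 250 bases before the start are shown for the 3 genes with a TATAAA or CTTTGAT match, 5′ to 3′ on the gene's strand, with the match in capitals (ATCAAAG is CTTTGAT on the other strand).
Cyp2e1 (chr7:140763569-140763818, plus strand): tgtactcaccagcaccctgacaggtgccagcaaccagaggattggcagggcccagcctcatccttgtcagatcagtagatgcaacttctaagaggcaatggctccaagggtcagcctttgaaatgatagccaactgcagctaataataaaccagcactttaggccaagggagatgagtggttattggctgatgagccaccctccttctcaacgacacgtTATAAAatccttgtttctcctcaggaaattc
Cyp1a2 (chr9:57683656-57683905, minus strand): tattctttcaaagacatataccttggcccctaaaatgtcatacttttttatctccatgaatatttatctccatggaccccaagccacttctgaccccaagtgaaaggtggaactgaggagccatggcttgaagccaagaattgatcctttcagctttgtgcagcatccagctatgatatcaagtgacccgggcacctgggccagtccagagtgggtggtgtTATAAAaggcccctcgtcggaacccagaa
Slc1a2 (chr2:102706188-102706437, plus strand): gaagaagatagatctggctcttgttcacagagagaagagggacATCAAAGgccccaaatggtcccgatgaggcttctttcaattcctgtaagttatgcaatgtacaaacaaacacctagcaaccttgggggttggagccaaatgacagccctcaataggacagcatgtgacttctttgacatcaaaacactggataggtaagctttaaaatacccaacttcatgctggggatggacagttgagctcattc
The TATAAA match began 31 bases before the RefSeq start of Cyp2e1 and 29 bases before that of Cyp1a2. The RefSeq start of Slc1a2 lies 47779 bases inside the gene as GENCODE M21 draws it, so its window is that of an internal start, and which start these livers used was not analysed here. The starts of Cyp2e1 and Cyp1a2 lie 80 and 48 bases inside their GENCODE genes.

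Cyp2e1 was at 4458, 12850 and 7502 CPM in the Sham livers and 3804, 9838 and 8934 CPM after VSG. The Sham libraries alone covered a wider range than the distance between the groups. The log2 fold change was -0.14 (SE 0.516, 95% interval -1.36 to 1.09), with an adjusted p of 0.872 by edgeR. Its sign turned without Sham replicate 2 (0.33) and without VSG replicate 4 (0.18).

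Cyp1a2 was at 141, 376 and 134 CPM in the Sham livers and 55.8, 268 and 207 CPM after VSG. Sham replicate 2 was the highest and VSG replicate 4 the lowest of the 6 libraries. On the log2 scale VSG differed from Sham by -0.29 (SE 0.629, 95% interval -1.79 to 1.20), with an adjusted p of 0.766 by edgeR, and it was 0.36 without Sham replicate 2 and 0.13 without VSG replicate 4. The spread among Sham livers, as SD over mean, was 51.4% for Cyp2e1 and 63.4% for Cyp1a2, and 5.65% and 3.14% of all tested genes had a larger one. Tbx3, with 12.1%, was the least variable of the 10 genes in Sham livers.

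**Figure D2:**
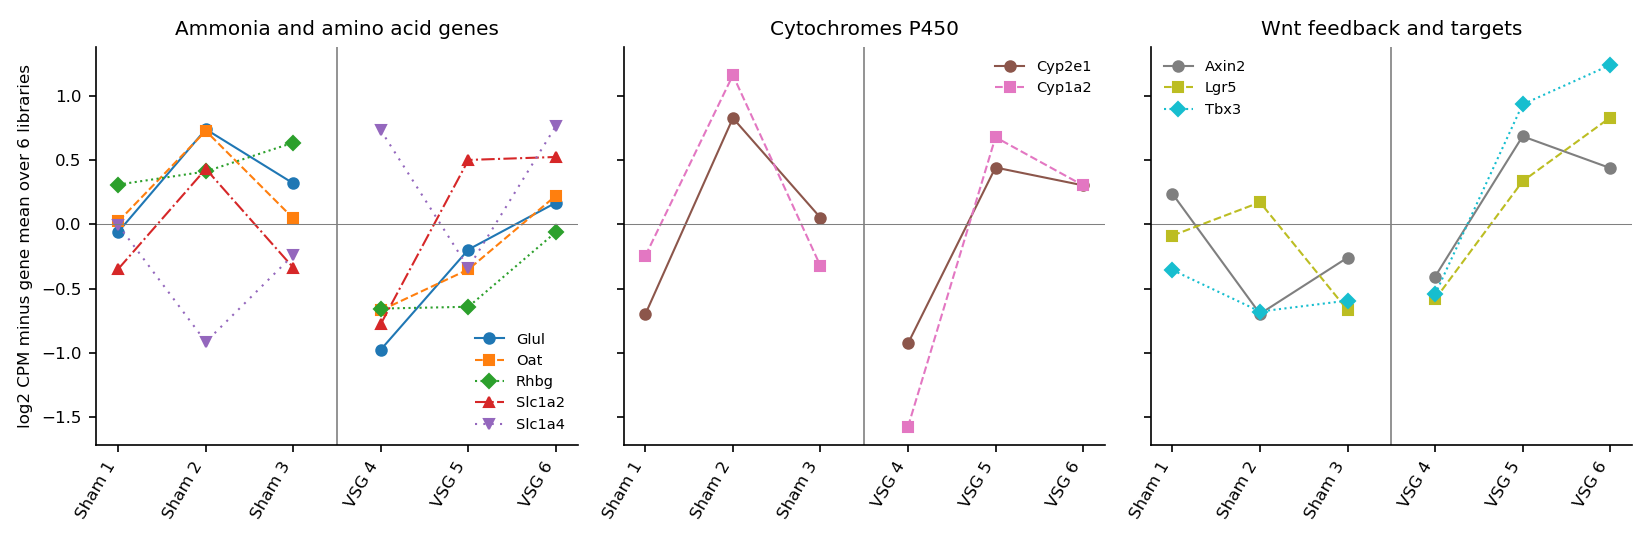
Level of each gene in each library as log2 CPM minus the mean of that gene over the 6 libraries (y axis), by library (x axis), in 3 panels by role. Lines join the libraries of a group only to guide the eye. Glul and Oat have the most similar profiles of all pairs, both cytochromes are highest in Sham 2 and lowest in VSG 4, and the 3 Wnt genes are above their mean in VSG 5 and VSG 6.

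The third group is tied to the Wnt pathway itself. Axin2, a scaffold protein that limits beta-catenin and is induced by it (ENSMUSG00000000142.15, chromosome 11, 108920349 to 108950783, plus strand), was at 12.6, 6.35 and 8.78 CPM in the Sham livers and 7.87, 17.4 and 14.6 CPM after VSG. VSG replicates 5 and 6 were above every Sham library, and VSG replicate 4 was among them. The log2 fold change was 0.52 (SE 0.350, 95% interval -0.31 to 1.35), with an adjusted p of 0.330 by edgeR.

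Lgr5, a receptor of R-spondins that strengthens Wnt signals (ENSMUSG00000020140.15, chromosome 10, 115450311 to 115587780, minus strand), was at 11.5, 13.8 and 7.48 CPM in the Sham livers and 7.96, 15.5 and 22.1 CPM after VSG. Here too VSG replicates 5 and 6 were above all Sham libraries while VSG replicate 4 was not. On the log2 scale VSG differed from Sham by 0.48 (SE 0.386, 95% interval -0.44 to 1.40), with an adjusted p of 0.411 by edgeR. Without VSG replicate 4 the log2 fold changes of Axin2 and Lgr5 were both 0.79, with adjusted p-values of 0.133 and 0.132. The fits without 1 library ran from 0.26 to 0.80 for Axin2, lowest without VSG replicate 5 and highest without Sham replicate 1, and from 0.11 without VSG replicate 6 to 0.79 for Lgr5.

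Tbx3, a T-box transcription factor and target of beta-catenin in the liver (ENSMUSG00000018604.18, chromosome 5, 119670669 to 119684724, plus strand), had the largest positive difference of the 10 genes. It was at 35.3, 28.1 and 29.8 CPM in the Sham livers and 30.9, 87.0 and 108 CPM after VSG. VSG replicate 4 lay inside the narrow Sham range, and VSG replicates 5 and 6 were well above it. The log2 fold change was 1.28 (SE 0.417, 95% interval 0.28 to 2.27), with an adjusted p of 0.0845 by edgeR and of 0.0190 by DESeq2. Without VSG replicate 4 it was 1.65 (SE 0.147, adjusted p 0.00805), in a fit where 7.32% of all genes tested were called. It was not called with limma-voom (adjusted p 0.135) or limma on log2(FPKM + 1) (0.151), and without VSG replicate 6 it was 0.925 (0.229). The antisense transcript Tbx3os1 lies opposite 115 exon bases of Tbx3. Its counts were 116, 470 and 151 for the Sham libraries and 76, 519 and 496 after VSG, where Tbx3 had 615 to 955 and 682 to 2258. Since the strand option of the counting was not stated, some uncertainty from that overlap stays with Tbx3.

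**Figure D3:**
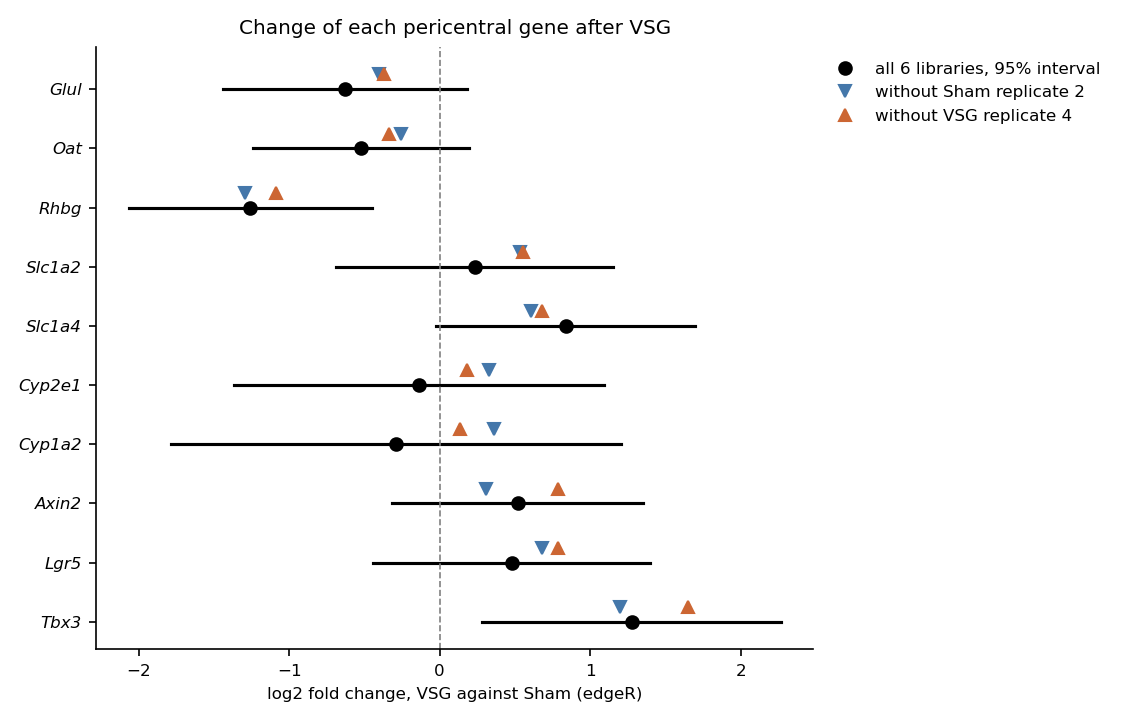
Log2 fold change of each gene after VSG against Sham (x axis, edgeR), with black circles and lines for the value and its 95% interval over all 6 libraries, and triangles for the value without Sham replicate 2 (pointing down) or without VSG replicate 4 (pointing up). The intervals of Rhbg and Tbx3 do not cross 0, and those of the other 8 genes do.

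Each gene was also set against Glul in the same liver, as a difference of log2(CPM + 0.5). Apart from the added 0.5, which weighs most on Rhbg, such a ratio does not depend on how libraries are scaled. The log2 ratio of Tbx3 to Glul was -4.92, -6.04 and -5.53 in Sham and -4.19, -3.49 and -3.55 in VSG livers. The ratio was higher in every VSG liver than in every Sham liver, VSG replicate 4 included. In that library Tbx3 itself lay inside the Sham range (30.9 CPM), while Glul was lower than in any other library (571 CPM). The lower mean of Glul after VSG, a log2 fold change of -0.63, enters every such ratio. The same held for Lgr5, with group means of -6.996 and -5.94, and for Slc1a2, with group means of -2.26 and -1.42. In the other 6 genes the ratios overlapped. The count of 3 of 9 genes stands beside 26.1% of all other genes tested whose ratio to Glul did not overlap between the groups (24.6% of all other genes were higher after VSG without overlap), so ratios of this kind were common. With 3 libraries against 3 an exact permutation test of a ratio cannot go below 0.1, and none was run.

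Among the 8163 other tested genes with a mean of at least 10 CPM, those with a centred log2 profile nearest to Glul were Slc16a12, Cpox and Abcg2, with root-mean-square differences of 0.110, 0.130 and 0.143 over the 6 libraries. Cpox encodes an enzyme of heme synthesis and Abcg2 an efflux transporter. Nearest to Cyp2e1 were Slc10a1, which takes up bile acids from the blood, Fgf1 and Akr1c6, at 0.105, 0.198 and 0.212. Slc10a1 was at 277, 861 and 481 CPM in the Sham livers and 214, 622.5 and 487 CPM after VSG, the same order of libraries as Cyp2e1. Nearest to Axin2 were Gpr146, Tmem25 and Cecr2, at 0.142, 0.179 and 0.194. None of these 9 genes had an adjusted p under 0.05 by edgeR, and the points share the 6 libraries and their depth.

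Of a list of 30 other hepatocyte genes placed near the central vein, all tested, 9 were called lower and 2 higher after VSG, beside 7.87% and 6.79% of all genes, with a median log2 fold change of -0.74. The largest falls were those of Gstm3, a glutathione transferase (log2 fold change -4.26, adjusted p 0.0114 by edgeR), Cyp2a5 (-2.93, 0.0241) and Cyp3a11 (-2.77, 0.0216), all from families of similar genes whose reads could be split among copies. Avpr1a, the vasopressin receptor of hepatocytes, rose from 5.14 ± 2.31 to 35.5 ± 10.1 CPM (log2 fold change 2.80, adjusted p 0.0105 by edgeR), and Ang, an angiogenin ribonuclease, had a log2 fold change of 2.33 (adjusted p 0.0115). The most abundant genes of the list that were not called were Rgn, Aldh1a1 and Pon1, with log2 fold changes of -0.66, -1.24 and -0.43. The groups did not overlap in Aldh1a1, which had an adjusted p of 0.0660 and was called with DESeq2 (0.00434), total counts (0.0270) and all genes of at least 1 count (0.0358). Without Sham replicate 2 Rgn and Pon1 were at -0.32 and -0.0242, and without VSG replicate 4 they were at -0.37 and -0.25. Without Sham replicate 1 Gstm3 was at -3.43, and without VSG replicate 5 Cyp3a11 was at -3.56. The calls of Cyp2a5 and Cyp3a11 were lost when VSG replicate 6 or either of Sham replicates 2 and 3 was left out, those of Gstm3 and Avpr1a without VSG replicate 6 and that of Ang without Sham replicate 3 or VSG replicate 6. Without VSG replicate 6, 1 gene of the list was called (1.42% of all genes), without Sham replicate 3 there were 3 (1.07%) and without Sham replicate 2 there were 6 (5.34%).

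Of 25 periportal hepatocyte genes, 2 were called lower and 1 higher, with a median of -0.25, where 14.7% of all genes were called. Hsd17b13, a lipid droplet enzyme, had a log2 fold change of -0.93 (adjusted p 0.0163 by edgeR). Ctsc, a protease that activates granule enzymes of immune cells, had one of 1.75 (0.0127). The neutrophil markers also rose after VSG, and a link between the rises was not tested. The abundant genes Alb and Pck1 were not called, at -0.30 and -0.44, and leaving out Sham replicate 2 gave -0.0406 and -0.0207, while leaving out VSG replicate 4 gave -0.11 and -0.17. No gene of this list was called without Sham replicate 3 (1.07% of all genes) or without VSG replicate 6 (1.42%), and 7 were without VSG replicate 5 (18.4%).

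In the Wnt and beta-catenin pathway 33 of 36 listed genes were tested, of which 1 was called higher and 2 lower, beside 14.7% of all genes called, with a median of 0.03. Ctnnb1, which encodes beta-catenin, was at 249.6 ± 8.74 CPM in the Sham livers and 244 ± 16.0 CPM after VSG (log2 fold change -0.04, adjusted p 0.843 by edgeR). Csnk1a1 and Lrp6, a kinase that marks beta-catenin for destruction and a Wnt co-receptor, were at 0.04 and 0.32 on the log2 scale and not called, the former turning to -0.10 with total counts. Lgr4, the more abundant relative of Lgr5, rose by 0.54 on the log2 scale (adjusted p 0.0432 by edgeR), from 65.5 ± 9.82 to 95.2 ± 8.44 CPM. Fzd4, a Frizzled receptor, had a log2 fold change of -0.77 (0.0469), and Ccnd1, the cell cycle gene of cyclin D1, one of -1.91 (0.0478). Each of the 3 calls was lost in 5 of the 6 fits that left out 1 library, with adjusted p-values of up to 0.168.

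Of 10 Wnt and R-spondin ligands, 5 had enough counts to be tested and none was called by edgeR, limma-voom or DESeq2. Rspo3, the R-spondin of central vein endothelium, was at 8.42, 9.69 and 7.90 CPM in the Sham livers and 4.84, 7.99 and 5.44 CPM after VSG (log2 fold change -0.51, adjusted p 0.153 by edgeR). Wnt2 and Wnt4 had log2 fold changes of -0.76 and -1.16 (0.314 and 0.130). In Wnt9b, named here after its values were seen, the groups did not overlap, at 0.959 to 1.07 CPM in the Sham livers and 0.477 to 0.641 CPM after VSG (-0.87, 0.0700). At an unadjusted p under 0.05 the count was 2 of 5, Wnt4 and Wnt9b, where 33.9% of all genes passed that threshold and 39.7% did not overlap. Without VSG replicate 4 Wnt2 was at -0.39, and without VSG replicate 5 Rspo3 and Wnt4 were called, at -0.77 and -1.85 (adjusted p 0.0324 and 0.0209 by edgeR).

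Around glutamine synthetase, 19 of 24 genes of glutamine, glutamate and proline metabolism were tested, and 5 were called lower and 1 higher, beside 7.87% and 6.79% of all genes, with a median of 0.04. The lower ones were Gpt2, an alanine aminotransferase (log2 fold change -1.26, adjusted p 0.0134 by edgeR), the proline catabolism enzymes Prodh (-0.89, 0.0494) and Aldh4a1 (-0.73, 0.0290), and the aminotransferases Gpt (-0.68, 0.0437) and Got2 (-0.67, 0.0489), the last 2 named after their values were seen. Nags, which makes the activator of the urea cycle, rose from 34.0 ± 2.25 to 46.0 ± 0.617 CPM (0.44, 0.0245). Of the abundant genes Slc38a4, Slc38a3 and Glud1, none was called, at -0.14, 0.11 and -0.36, and the sign of Slc38a3 turned with total counts and in 2 fits that left out 1 library. The 6 calls dropped to 0 without Sham replicate 3 or VSG replicate 6 (1.07% and 1.42% of all genes called), to 1 without Sham replicate 2 or VSG replicate 4 (5.34% and 7.32%) and to 2 without Sham replicate 1 (8.19%).

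Of 9 listed genes of the aryl hydrocarbon receptor pathway, which hold neither Cyp1a2 nor the receptor, 8 were tested and 1, Nqo1, was called, beside 14.7% of all genes. Nqo1, a quinone reductase, was at 19.0 ± 2.30 CPM in Sham livers and fell to 7.11 ± 0.423 CPM, a log2 fold change of -1.42 (SE 0.130, adjusted p 0.00429 by edgeR), and passed the threshold in all 13 alternatives. Arnt, the partner of the receptor, and Ugt1a6a were at -0.04 and 0.17 and were not called.

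**Figure D4:**
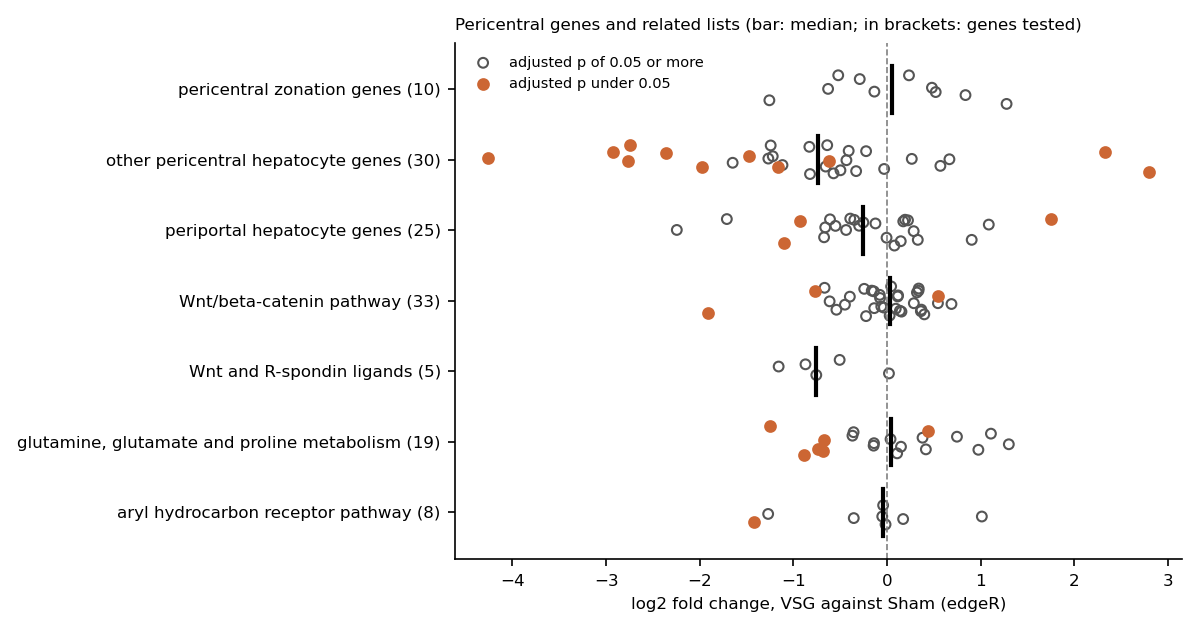
Log2 fold change after VSG against Sham (x axis, edgeR) of each tested gene in the list of 10 and in 6 related lists (y axis, number tested in brackets), with filled points for an adjusted p under 0.05, open points for the rest and a bar for the median. The 10 pericentral genes hold no filled point and have a median of 0.05, and the other pericentral hepatocyte genes hold 11 filled points and have a median of -0.74.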

How the data were processed

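The authors deposited unnormalized read counts for each gene. They had made, per the methods and the submitters' processing notes, strand-specific poly(A) libraries, checked them with FastQC 0.10.1, aligned them to mm10 with STAR 2.6.0 and counted them with featureCounts. The annotation, the strand option and the treatment of shared reads are not given in the sources used here. A gene length in bases, also deposited, entered FPKM alone. It equals the GENCODE M21 exon bases for each of the 10 genes but Glul. Of 55385 identifiers, 55144 were matched to GENCODE M21 (GRCm38, the assembly of mm10).

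Totals ran from 22804397 to 24191778 counts per library. Low genes were removed with filterByExpr (count of at least 10, total of at least 15), and the rest were scaled with TMM factors and tested with edgeR 4.0.16 (R 4.3.3, quasi-likelihood, group as the only term), with p-values adjusted by Benjamini-Hochberg over the 14454 genes. Adjusted p-values come from this fit unless another tool is named. CPM of single libraries use the TMM factors. Profiles and ratios used log2(CPM + 0.5). Intervals are 95% intervals of the fit. The procedure was tested on simulated counts with 200 changed genes.

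Alternatives were DESeq2 1.42.0, limma-voom (limma 3.58.1), RLE factors, total counts, 2 other filters, limma on log2(FPKM + 1) and leaving out each library. The genes, lists and tests were chosen with earlier results of these data known. Besides the 10 genes, the text names up to 3 called genes of at least 1 CPM in each direction per list, by size of change, the 3 most abundant uncalled ones, and the 3 nearest profiles of Glul, Cyp2e1 and Axin2. Some genes that this rule names are not reported here.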

Additional observations from a re-analysis of the deposited data

How the results depend on the processing

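Glul, Oat, Slc1a2, Axin2 and Lgr5 kept their direction and stayed outside the threshold in all 13 alternatives. Rhbg passed the threshold with DESeq2 (log2 fold change -1.28), limma-voom (-1.30), total counts (-1.41), at least 10 counts in every library (-1.25) and limma on log2(FPKM + 1) (-0.49, on that scale). Tbx3 passed with DESeq2 (1.26) and with all genes of at least 1 count (1.25). The number of the 10 genes called was thus 2 with DESeq2 and 1 with limma-voom, total counts, either other filter or log2(FPKM + 1), against 0. Of all genes, 8.38% to 19.4% were called in these alternatives, against 14.7%. Leaving out 1 library at a time gave 0 to 1 called gene, where 1.07% to 18.4% of all genes were called. The log2 fold changes then ran from 0.60 to 1.10 for Slc1a4, 0.93 to 1.65 for Tbx3, -0.44 to 0.33 for Cyp2e1 and -0.74 to 0.36 for Cyp1a2. The cause of these changes was not tested.

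Of the related lists, periportal genes had 9 calls with DESeq2 (19.4% of all genes called), 5 with total counts (13.8%) and 7 with all genes of at least 1 count (8.38%). The main fit had 3 (14.7%). The Wnt and beta-catenin list had 5 with DESeq2 (19.4%) against 3 (14.7%), and the ligands 1 with at least 10 counts in every library (14.8%) against 0. Without 1 library the calls ran from 1 to 12 in the other pericentral genes and 0 to 7 in periportal genes. They ran from 0 to 3 in the Wnt and beta-catenin list, 0 to 2 in the ligands and 0 to 7 in glutamine, glutamate and proline metabolism. Over all genes the calls ran from 159 (1.07%) to 2732 (18.4%), against 2118 (14.7%) with all libraries and 3272 (19.4%) with DESeq2. Csnk1a1 turned to -0.10 and Slc38a3 to -0.0185 with total counts. Without 1 library, Slc38a3 ran from -0.0285 to 0.23, Arnt from -0.10 to 0.0292, Ugt1a6a from -0.0427 to 0.40, Slc10a1 from -0.64 to 0.22, Fgf1 from -0.56 to 0.35 and Akr1c6 from -0.36 to 0.11. No paired analysis was possible because the groups share no replicate numbers.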
